A study of Mus musculus with 2 samples.

Results

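Circular RNAs (circRNAs) of the genes named Vps, Snx, Exoc and Sec are described here. These names cover most of the coats, tethers and sorting factors that carry membrane cargo between the endoplasmic reticulum (ER), Golgi, endosomes, lysosomes and cell surface. Members were all host genes whose symbol begins with one of the 4 names followed by a digit. They came to 74 of the 8174 host genes listed over both libraries, and 72 of them had at least 1 junction read. A junction read crosses the back-splice, the point where the end of a downstream exon is joined to the start of an upstream exon. The members had 402 circRNAs with a junction read, of 26265 in all. The Vps family had 145 of these from 24 hosts, Snx 104 from 18, Exoc 52 from 8 and Sec 101 from 22. The pattern also takes in Vps72, a chromatin protein, and the Sec14-like lipid-binding genes, which are not part of a coat.

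The RNA came from the intestine of mice of the strain Lgr5GFP-CreERT2 aged 2 months. This allele places green fluorescent protein and a tamoxifen-inducible Cre recombinase under the control of Lgr5, a gene of crypt stem cells, and the mice of both groups are of that strain. Cells were separated by flow cytometry into an Lgr5+ group (labelled ISC, for intestinal stem cell) and an Lgr5- group (labelled non-ISC), and each group had 1 library. No treatment is named, and neither the intestinal segment nor the number of mice per library is given. With 1 library per group no difference below has a replicate check, and the intervals cover counting error only and compare these libraries.

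The 4 families work at successive steps of traffic. At the ER, the Sec61 channel with Sec62 and Sec63 passes new proteins across the membrane, Sec11 subunits of the signal peptidase trim them, and the COPII coat (Sec23 with Sec24 inside, Sec13 with Sec31 outside) buds the vesicles that carry them to the Golgi. Vps proteins form the endosomal machinery: ESCRT complexes sort ubiquitinated receptors, the HOPS and CORVET tethers and the SM protein Vps45 guide fusion, GARP tethers vesicles returning to the Golgi, and VPS13 proteins move lipids between membranes. Sorting nexins (Snx) bind phosphoinositides through a PX domain and recycle endosomal cargo, and the exocyst (Exoc) tethers secretory vesicles at the plasma membrane. In the intestinal epithelium these routes serve secretion, nutrient transporter recycling and the apical surface.

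Back-splice junctions identify the circRNAs, and a selection from hosts on which the results turn is shown; circles that reach outside coding sequence, such as those of Sec31a beginning at exon 2, are not. Each line gives the last 20 bases of the last exon in lower case and then, in capitals, the first 20 bases of the first exon, 5′ to 3′ on the gene's strand. They were read from GENCODE M21 transcripts, the positions are GRCm38 counted from 1, and every circle shown lies wholly in coding sequence. The length is the sum of the exons between the ends. The windows of Vps13b and of Snx5 are shown in pairs because one side of the junction is shared: the same acceptor in Vps13b and the same donor in Snx5.
Sec31a exons 19 to 21, chr5:100375208-100381333, minus strand, 472 nt: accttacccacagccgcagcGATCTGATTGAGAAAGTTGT
Sec24a exons 4 to 8, chr11:51729452-51734661, minus strand, 636 nt: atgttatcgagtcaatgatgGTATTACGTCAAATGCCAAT
Sec23a exons 5 to 7, chr12:58997136-59002055, minus strand, 462 nt: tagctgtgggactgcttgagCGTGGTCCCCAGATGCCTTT
Sec63 exons 3 to 7, chr10:42789300-42797733, plus strand, 400 nt: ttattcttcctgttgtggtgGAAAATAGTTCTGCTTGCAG
Sec63 exons 2 to 4, chr10:42783442-42791291, plus strand, 328 nt: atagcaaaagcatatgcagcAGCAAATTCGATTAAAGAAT
Vps4b exons 2 to 4, chr1:106786703-106791789, minus strand, 337 nt: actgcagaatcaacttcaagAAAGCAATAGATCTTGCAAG
Vps13b exons 18 to 19, chr15:35533296-35534360, plus strand, 309 nt: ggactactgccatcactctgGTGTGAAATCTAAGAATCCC
Vps13b exons 18 to 21, chr15:35533296-35576526, plus strand, 567 nt: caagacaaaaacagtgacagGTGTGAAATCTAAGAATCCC
Snx5 exons 5 to 8, chr2:144255340-144257993, minus strand, 402 nt: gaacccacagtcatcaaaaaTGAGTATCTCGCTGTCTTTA
Snx5 exons 6 to 8, chr2:144255340-144257195, minus strand, 278 nt: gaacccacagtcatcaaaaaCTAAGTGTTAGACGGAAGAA
Snx12 exons 2 to 4, chrX:101213774-101215578, minus strand, 312 nt: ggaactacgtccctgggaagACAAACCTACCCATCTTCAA
Exoc6b exons 3 to 6, chr6:84989325-85005036, minus strand, 390 nt: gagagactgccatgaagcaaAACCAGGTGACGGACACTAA
Exoc4 exons 8 to 9, chr6:33438380-33442039, plus strand, 235 nt: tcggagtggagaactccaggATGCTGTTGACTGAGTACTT

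The libraries held 156582 (labelled ISC) and 76331 (labelled non-ISC) junction reads, so that 3 reads, the limit a count of 0 allows, equal 19.2 and 39.3 per 1000000. The library labelled ISC went against its label. Of 17 Lgr5 stem cell genes, 13, Lgr5 among them, had no junction read in it, and 7 had none in the other. Ascl2, Cdca7, Sox9, Ephb3, Tnfrsf19 and Nkd1 were at 0 in both and so do not bear on the label. Lgr5 itself, with 0 and 7, stayed under the minimum of 10 reads used below. Summed, the list came to 49 reads (labelled ISC) against 189 (labelled non-ISC). Of its 6 genes with at least 10 reads, 5 were lower under the label ISC by the rule given below. The remaining gene, Znrf3, had 23 and 12 reads, a ratio of 0.934, and Soat1, with fewer, had 7 and 0. Epithelial genes, 25 in number, together had 11 reads against 3457, and 21 of them, including Epcam, Cdh1 and Vil1, were at 0 in the library labelled ISC. Btnl1 alone held 69.8% of the reads of this list. The 22 T lymphocyte genes had 7340 reads against 153, a ratio of 23.4 (95% interval 19.9 to 27.6), although Cd3e, Cd3d, Cd8a and Thy1 were at 0 in both libraries. Satb1 alone held 57.3% of the reads of this list. Of its 13 genes with at least 10 reads 12 were higher by the rule given below, and Tox (62 and 18 reads) was not. A list of stroma, muscle and endothelium had 727 reads against 19, a ratio of 18.7 (11.9 to 31.2), with 88.6% on Zeb1, and Pecam1 had 67 against 7. Of its 15 genes, 10 were at 0 in the library labelled ISC, among them Col1a1, Acta2 and Cdh5, and 13 in the other. A list of B lymphocyte and myeloid genes had 17 reads against 6, a ratio of 1.38 (0.520 to 4.28). Every comparison below is therefore between a library labelled ISC and one labelled non-ISC, with all of these marker lists but the last differing between them. Their part in the results was not tested.

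As a whole the 4 families held nearly the same share of both libraries. They had 1936 junction reads in the library labelled ISC (1.24% of its total) and 1042 (1.37%) in that labelled non-ISC. The ratio of the shares, labelled ISC over labelled non-ISC, was 0.906 (0.840 to 0.978). The families differed in this sum: Vps stood at 1.07 (0.945 to 1.22) from 802 and 365 reads, Exoc at 1.51 (1.12 to 2.06) from 183 and 59, Snx at 0.852 (0.747 to 0.973) from 624 and 357, and Sec at 0.611 (0.517 to 0.721) from 327 and 261. These directions depend on the scale. Divided by the library totals that the deposited RPM values imply, which moves every ratio up 2.82-fold (1.49 on the log2 scale), Snx became 2.40 and Sec 1.72, Vps 3.02 and Exoc 4.26. On circRNAs read in both libraries, relative to junction reads, Sec was 0.798 (0.635 to 1.01) and Exoc 0.992 (0.626 to 1.60). Vps was 0.946 and Snx 0.851 on that count. Without Exoc2, its host with the most reads, Exoc was 1.26 (0.896 to 1.80). Directions below are relative to the total of junction reads.

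A host or circRNA was counted as higher or lower when it had at least 10 reads over both libraries, its ratio was at least 2 in either direction and the interval excluded 1. Of the 41 member hosts with 10 reads, 9 were higher under the label ISC, 7 lower and 25 neither, so 39.0% were counted. Over all 2920 host genes with 10 reads, 26.7% were higher, 22.7% lower and 49.4% either, and the members are not set apart by this share. Under scaling to library totals the member hosts divided into 25 higher and 3 lower, and all hosts into 1717 and 324. The median log2 ratio of the 41 hosts was 0.12, beside 0.16 for all hosts, with medians of 0.32 for Vps, −0.09 for Snx, 0.22 for Exoc and −1.77 for Sec. Vps had 4 hosts higher and 1 lower of 15, Snx 2 and 2 of 10, Exoc 2 and 0 of 7, and Sec 1 and 4 of 9. Vps36 (14 and 0 reads), Vps39 (12 and 0), Snx30 (14 and 1) and Exoc5 (28 and 2) reached 10 reads only through the library labelled ISC. Their counts as higher are therefore partly set by the minimum of 10 reads and are no support for a difference. The same holds for any other host or circRNA below that reached 10 reads through 1 library only.

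**Figure D1:**
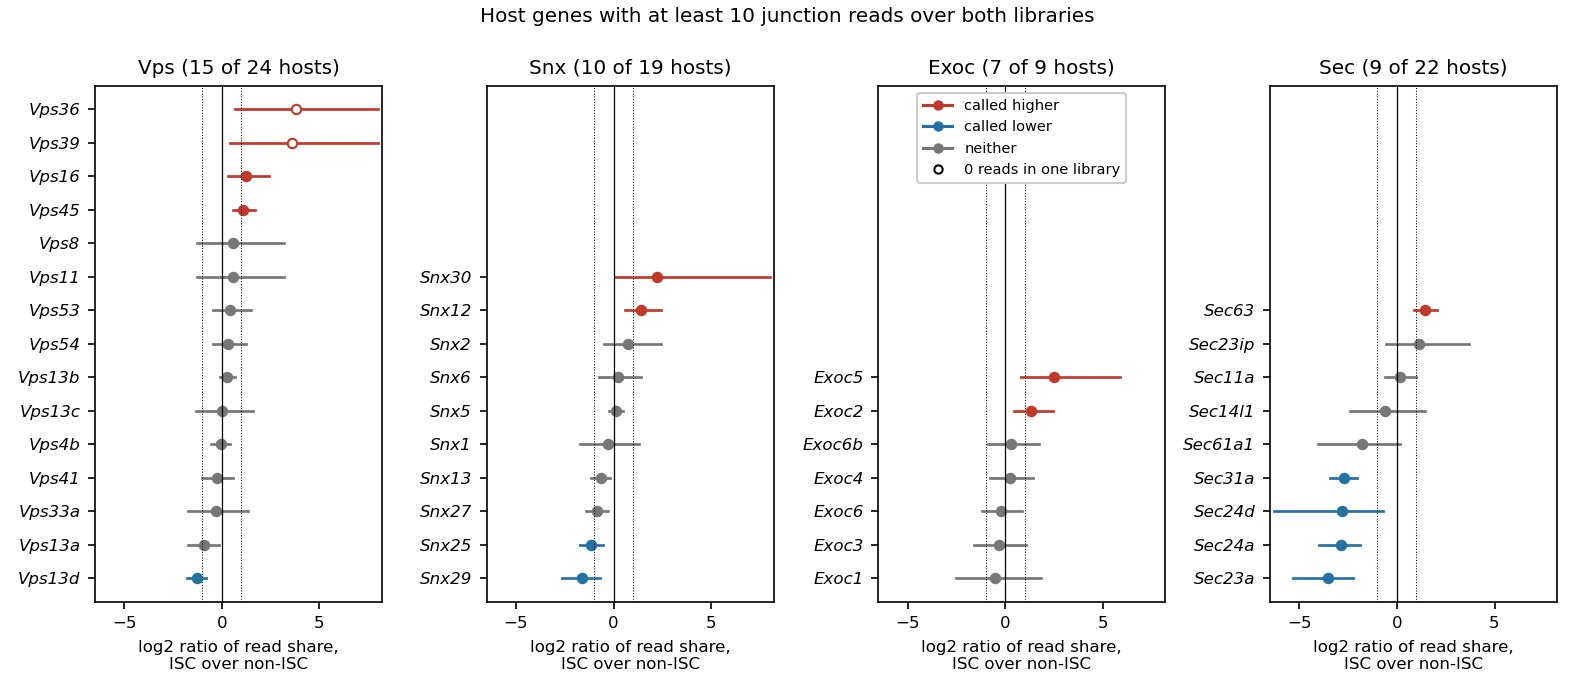
Log2 ratio of read share (library labelled ISC over library labelled non-ISC) for the 41 hosts with at least 10 junction reads, 1 panel per family; points are ratios with a pseudocount of 0.5 read, bars are 95% exact counting intervals cut at the panel edge, solid lines mark equal shares and dotted lines a ratio of 2 in either direction. The lowest points are the COPII coat hosts of the Sec panel; divided by library totals every point would shift right by 1.49, which takes each point less than 1.49 below the solid line, Snx25 and Vps13d among them, to its other side.

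Single circRNAs were mostly rare and seldom found in both libraries. Of the 402, 284 were read under the label ISC, 205 under the label non-ISC and 87 in both (21.6%, beside 16.7% of all circRNAs). In the 2 libraries 50.7% and 48.3% of the members' circRNAs rested on 1 or 2 reads. Among 64 with at least 10 reads over both, 14 were higher and 15 lower, where 32.4% of all such circRNAs were higher, 23.0% lower and 55.4% either. Counting circRNAs with reads in both libraries alone left 6 higher and 10 lower. Where a library does not list a circRNA, 0 reads were assumed, which need not hold, and its reads are given without a fold.

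**Figure D2:**
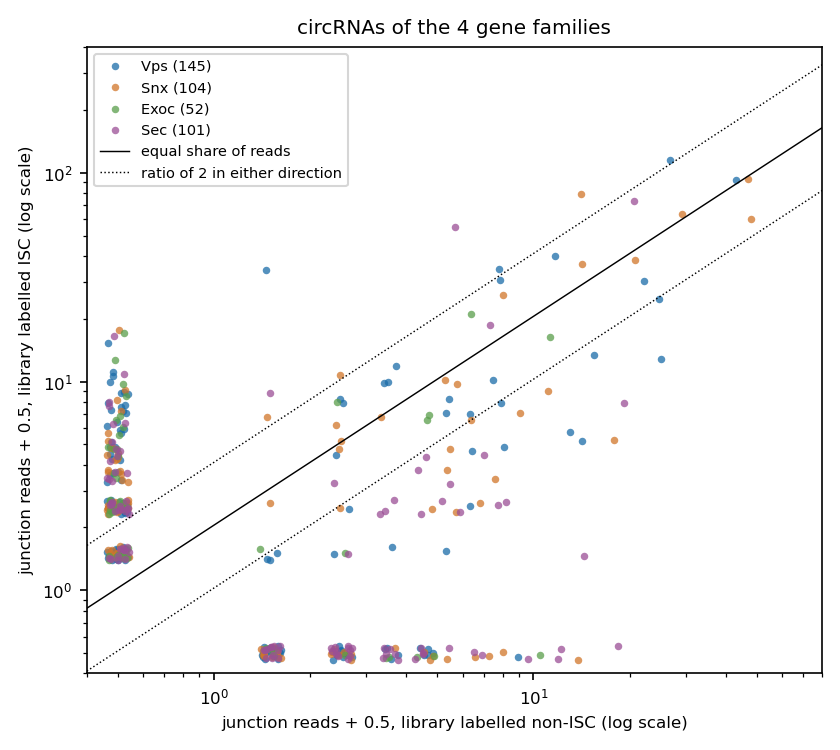
Junction reads plus 0.5 of each of the 402 member circRNAs in the library labelled non-ISC (horizontal, log scale) and the library labelled ISC (vertical, log scale), coloured by family, with small random shifts so that points do not hide each other; the solid line marks an equal share of junction reads and the dotted lines a ratio of 2. The 87 circRNAs with reads in both libraries spread around the solid line, and the bands at 0.5 hold those with reads in 1 library only.

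Genes of the COPII coat gave the one role list in which every host with enough reads was lower in the library labelled ISC. The 9 coat hosts present had 60 junction reads there against 181 in the library labelled non-ISC, or 383 and 2371 per 1000000, a ratio of 0.162 (0.119 to 0.218). All 4 hosts with at least 10 reads and all 6 such circRNAs were lower, beside the 22.7% of all hosts and 23.0% of all circRNAs given above. Sec23a (5 and 30 reads), Sec24d (2 and 8) and most of these circRNAs reached 10 reads mainly through the library labelled non-ISC. Their counts as lower are therefore partly set by the minimum of 10 reads and are no support for a difference. The list follows the membership of the coat and was set down with earlier results of these data known, so the count is a description.

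Sec31a (chr5:100361649-100416234, minus strand), which forms the outer cage of the coat with Sec13, had 26 junction reads (labelled ISC) and 83 (labelled non-ISC), a ratio of 0.153 (0.0943 to 0.240). Of its circRNAs 4 had 10 reads or more, and all were lower. The circle of exons 2 to 4 (chr5:100405444-100408113) had 7 and 18 reads, and that of exons 2 to 7 had 1 and 13. The circle of exons 2 to 5 had no entry in the library labelled ISC and 18 reads in the other, and the circle of exons 19 to 21, whose junction is shown above, had 2 and 8. Beginning at exon 2 were 6 Sec31a circRNAs, which together had 14 and 55 reads, so most of the host's reads lay on circles with that first exon. These circles did not all go the same way. That of exons 2 to 6 had 6 reads in the library labelled ISC and no entry in the other.

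Sec24a (chr11:51692264-51763634), a cargo-binding subunit of the inner coat, had 11 and 40 reads, a ratio of 0.134 (0.0620 to 0.266). Its leading circle in the library labelled non-ISC, exons 4 to 8, had 11 reads and no entry in the library labelled ISC. Restricted to Sec24a circRNAs read in both libraries, the ratio was 0.205 (0.0777 to 0.491). Sec23a (chr12:58958383-59012017), the subunit that stimulates the GTPase Sar1, had 5 reads against 30, a ratio of 0.0812 (0.0246 to 0.211). No Sec23a circRNA was read in both libraries: its most-read circle, exons 5 to 7 with 12 reads, and a circle of exons 11 to 13 with 9 reads were without entries in the library labelled ISC. Sec24d, another cargo-binding subunit, had 2 and 8 reads, a ratio of 0.122 (0.0126 to 0.611), and with halved reads its interval reached 1 (0.00247 to 1.23).

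The coat hosts below 10 reads did not all lean the same way. Sec24b had 6 reads (labelled ISC) and 2 (labelled non-ISC), Sec31b had 6 and 3, and Sec13 had 3 and 3. Sec24c had 1 and 4, and Sec23b, the paralog of Sec23a, had 0 and 8. Sec16a and Sec16b, which organise the exit sites, are not among the host genes of the files. Summed over the coat, the ratio was 0.180 on the 12 circRNAs read in both libraries, 0.169 without Sec31a and 0.455 (0.334 to 0.613) when divided by library totals, where Sec24d was no longer counted as lower. The epithelial list (11 and 3457 reads) differed in the same direction as the coat. The T lymphocyte list (7340 and 153 reads) differed in the opposite direction. The part of these 2 lists in the result of the coat was not tested. Fewer cells with a circRNA and fewer copies in each cell cannot be told apart in these pooled cells.

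**Figure D3:**
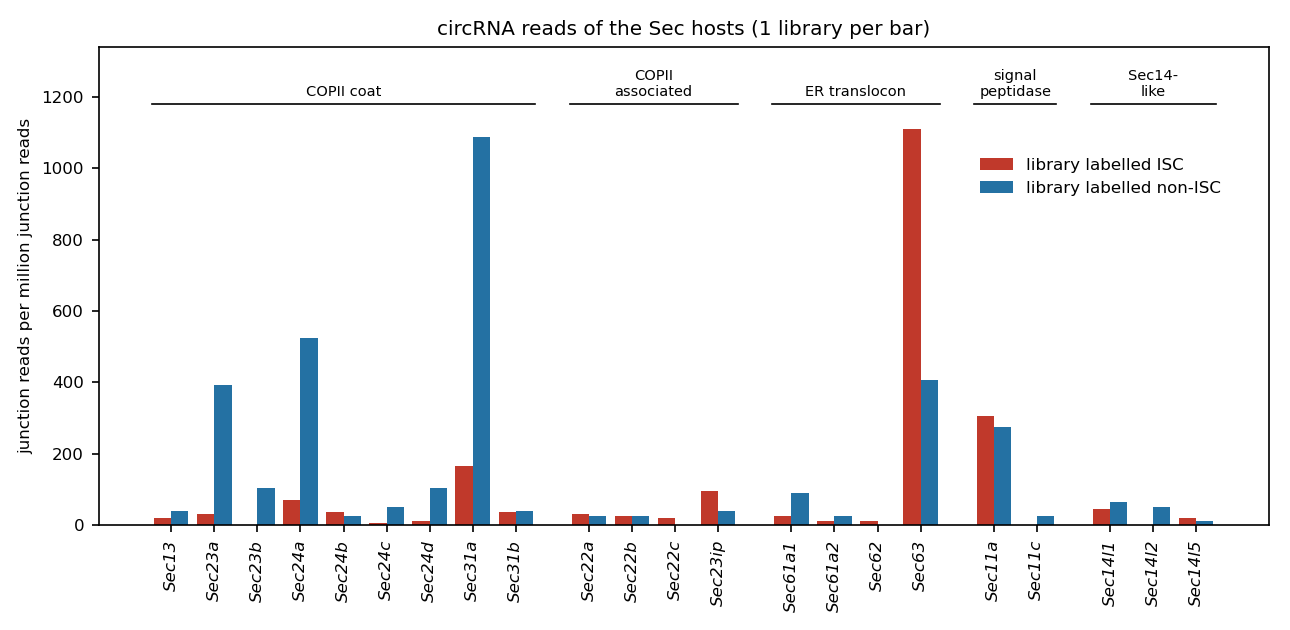
Junction reads per 1000000 junction reads of the 22 Sec hosts, grouped by role, in the library labelled ISC (red) and the library labelled non-ISC (blue), 1 library per bar and no error bars. Sec31a reaches 1087 per 1000000 in the library labelled non-ISC and 166 in the other, and Sec63 stands the opposite way with 406 and 1111.

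Sec63 was the member host of the ER translocon with the most reads and was higher in the library labelled ISC. Its product is a membrane J-domain protein that brings the chaperone BiP to the Sec61 channel. The host (chr10:42761496-42832514, plus strand) had 174 and 31 reads, a ratio of 2.74 (1.86 to 4.15). The circle of exons 3 to 7 had 78 and 19 reads, a ratio of 2.00 (1.2 to 3.5), and that of exons 2 to 4 had 58 and 5, a ratio of 5.65 (2.29 to 18.1). Another, of exons 17 to 19 (chr10:42815055-42823979), had 15 reads in the library labelled ISC and none in the other. Sec63 held 92.3% of the reads of the 4 translocon hosts present (182 and 40 reads, ratio 2.22, 1.57 to 3.21). Sec61a1, which encodes the channel itself, had 4 and 7 reads, a ratio of 0.279 (0.0598 to 1.10), Sec61a2 had 2 and 2, and Sec62 had 2 and 0. The summed Sec ratio of 0.611 became 0.324 without Sec63, so this host and the coat hosts pulled the family in opposite directions.

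Other Sec hosts gave no difference past the rule. Sec11a, the catalytic subunit of the signal peptidase, had 48 and 21 reads, a ratio of 1.11 (0.654 to 1.96), with 17 and 7 on its most-read circRNA (chr7:80915740-80923220). This circRNA matched an annotated exon at 1 of its ends only. Sec23ip, a partner of Sec23, had 15 and 3 reads, a ratio of 2.44 (0.690 to 13.1). The 3 Sec14-like genes together had 10 and 10 reads.

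Among Vps genes, the SM protein Vps45, which promotes SNARE-driven fusion at early endosomes, was higher in the library labelled ISC. It had 142 reads there and 32 in the other (907 and 419 per 1000000), a ratio of 2.16 (1.47 to 3.28). One circle carried 123 and 26 of these reads, or 86.6% and 81.3% of the host, at a ratio of 2.31 (1.5 to 3.67). On the circRNAs of Vps45 read in both libraries the ratio was 1.90 (1.28 to 2.90), under the minimum of 2.

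The HOPS and CORVET tethers had 132 and 46 reads, a ratio of 1.40 (0.993 to 2.00), and 2 of 6 hosts with enough reads were higher, beside 26.7% of all hosts. Vps16, in the core that both tethers share, had 50 and 10 reads, a ratio of 2.44 (1.22 to 5.39), which halved reads no longer separated from 1 (0.917 to 8.15). Most of its reads lay on 1 circle of exons 10 to 13 (chr2:130439620-130440579) with 32 and 7. Vps39, a HOPS subunit that binds the late endosome, had 12 reads in the library labelled ISC and none in the other. Its count as higher was therefore partly set by the minimum of reads. The HOPS subunit Vps41 had 38 and 22 reads, a ratio of 0.842 (0.485 to 1.5), and 31 and 22 of them were on exons 8 to 10 (chr13:18810432-18814293). Vps33a had 12 and 7 reads, and Vps11 and Vps8 had 10 and 3 each.

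ESCRT members held 129 and 60 reads, a ratio of 1.05 (0.766 to 1.45). Most belonged to Vps4b, the ATPase that takes the ESCRT-III polymer apart, with 110 and 56 reads and a ratio of 0.958 (0.688 to 1.35). Its circle of exons 2 to 4 had 95 and 43 reads, a ratio of 1.08 (0.744 to 1.58). In all, 7 Vps4b circRNAs shared the exon 2 acceptor and held 110 and 55 reads together, so nearly all Vps4b circles began at that exon. Vps36, an ubiquitin-binding subunit of ESCRT-II, had 14 reads in the library labelled ISC and none in the other, and 11 of them were on exons 6 to 9 (chr8:22207857-22211672), a circle that the library labelled non-ISC lists at 0.

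The VPS13 lipid transfer genes, whose products bridge neighbouring membranes, had 304 and 195 reads, a ratio of 0.760 (0.633 to 0.914). Vps13d was lower in the library labelled ISC, with 70 reads against 83 and a ratio of 0.411 (0.295 to 0.572), but 1.16 when divided by library totals. Of its circles 2 had at least 10 reads in each library. Exons 64 to 65 (chr4:145016735-145020269) had 24 and 26 reads, a ratio of 0.450 (0.247 to 0.815), and the single exon 18 (chr4:145154569-145156782), 2214 nt long, had 13 and 23, a ratio of 0.276 (0.128 to 0.567). Vps13a had 31 and 29 reads, a ratio of 0.521 (0.304 to 0.896), which misses the minimum of 2, and on circRNAs read in both libraries it was lower at 0.443 (0.229 to 0.851). Vps13b had 188 and 76 reads, 1.21 (0.919 to 1.60), and Vps13c 15 and 7.

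Within Vps13b the circles did not move together. Exons 4 to 6 (chr15:35417511-35423297) had 32 reads against 1, a ratio of 15.6 (2.61 to 635), and exons 37 to 39 had 16 reads and none. Exons 18 to 19 had 35 and 7 reads, a ratio of 2.44 (1.07 to 6.50). With the same acceptor and a donor further downstream, the circle of exons 18 to 21 had 12 and 15, a ratio of 0.390 (0.167 to 0.892), which turned to 1.10 when divided by library totals. Exons 31 to 33 (chr15:35668701-35674952) had 41 and 11, 1.82 (0.917 to 3.92).

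GARP hosts Vps53 and Vps54 had 37 and 13 reads and 47 and 18 reads, and neither passed the rule. On circRNAs read in both libraries Vps54 turned to 0.457 (0.210 to 0.987) and was lower, and the count column gave 0.387. Retromer, the coat that retrieves receptors from endosomes, was barely seen: Vps26a, Vps26b, Vps29 and Vps35 had 10 reads and 1 together. Vps72 had 1 read in the library labelled ISC.

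Snx genes showed differences in both directions. Snx12, a small nexin with little beyond its PX domain, was higher in the library labelled ISC, with 73 reads against 13 and a ratio of 2.74 (1.51 to 5.38). All of these reads were on 1 circle, exons 2 to 4, whose 312 nt are a multiple of 3. Snx30, a nexin with a membrane-bending BAR domain, had 14 reads and 1, a ratio of 6.82 (1.04 to 289). Halving all reads, as if both mates of a pair had been counted, ended the call for Snx30 (3.41, 0.438 to 154). In the count column Snx12 and its circle turned to 0.833 (0.679 to 1.03).

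Snx25 and Snx29 were lower in the library labelled ISC. Snx25, a nexin with an RGS domain, had 49 and 53 reads, a ratio of 0.451 (0.299 to 0.678), but 0.504 under median-ratio scaling and 1.27 when divided by library totals. Its circle of exons 2 to 5 (chr8:46103515-46124146) had 40 and 21 reads, a ratio of 0.929 (0.535 to 1.66). A circle with the same donor that began at exon 3 (chr8:46103515-46116398) had 5 and 18, a ratio of 0.135 (0.0393 to 0.378). Snx29 had 17 and 26 reads, a ratio of 0.319 (0.162 to 0.610), and under the label non-ISC 14 of these were on a circle of exons 5 to 6 (chr16:11445165-11447508) without an entry in the other. On Snx29 circRNAs read in both libraries the ratio was 0.780 (0.225 to 3.03), and divided by library totals it was 0.898 (0.457 to 1.72), both of which end its call.

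The remaining Snx hosts did not pass. Snx5, a BAR-domain nexin that sorts endosomal receptors, had the most junction reads of any member, 233 and 104, at a ratio of 1.09 (0.863 to 1.39). Its circles stood at similar ratios: 87 and 45 reads on exons 5 to 8 (0.942, 0.650 to 1.38), 60 and 28 on exons 4 to 10 (1.04, 0.657 to 1.70), 34 and 14 on exons 6 to 8 (1.18, 0.619 to 2.39) and 24 and 8 on exons 2 to 4 (1.46, 0.636 to 3.77). A neighbouring entry, which starts at 144254721 where exons 4 to 10 start at 144254726, had 10 and 2 further reads. Snx13, another nexin with an RGS domain, had 88 and 68 reads, a ratio of 0.631 (0.455 to 0.879), led by exons 2 to 5 (chr12:35078900-35086984) with 61 and 47. Snx27, which couples recycling cargo to retromer, had 60 and 52, a ratio of 0.562 (0.382 to 0.832). Their intervals exclude 1 without the ratio reaching 2, and divided by library totals both turned, Snx13 to 1.78 (1.28 to 2.48) and Snx27 to 1.58 (1.07 to 2.34). The BAR-domain relatives Snx6, Snx2 and Snx1 had 30 and 12, 22 and 6, and 12 and 7 reads.

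Exocyst hosts were seen with 183 and 59 reads, and under the label ISC 2 of 7 with enough reads were higher and none lower, beside 26.7% and 22.7% of all hosts. Exoc2, the subunit that binds Ral GTPases, had 59 and 11 reads, a ratio of 2.61 (1.36 to 5.52). Its circle of exons 2 to 6 (chr13:30925723-30940770) had 22 and 6 reads, 1.79 (0.703 to 5.39), and exons 2 to 4 had 13 reads and none. Exoc5 had 28 and 2 reads, a ratio of 6.82 (1.72 to 59.1), spread over circles of at most 6 reads each, and no Exoc5 circRNA was read in both libraries. The count of Exoc5 as higher was partly set by the minimum of reads. Exoc6b had 21 and 8 reads, of which 17 in the library labelled ISC were on exons 3 to 6, without an entry in the other. Exoc4 had 27 and 11, Exoc6 25 and 14 with 15 and 10 on exons 2 to 5 (chr19:37570383-37573757), Exoc3 15 and 9, and Exoc1 6 and 4.

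The exocyst sum of 1.51 rested on circRNAs read under the label ISC alone. Of the family's 52 circRNAs 7 were read in both libraries, and on these the ratio was 0.992. Exoc2 alone stood at 1.60 (0.665 to 4.42) on that count, and at 2.44 (0.998 to 7.16) with halved reads, so both ended its call. Exoc5 turned to 0.635 (0.419 to 0.968) in the count column.

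Genes that work with these families were taken from a list of 135 symbols, of which 86 had a junction read. Some genes stand in it under more than 1 symbol, so it holds fewer than 135 genes. Together they had 2074 and 781 reads, a ratio of 1.29 (1.19 to 1.41), with 35.9% of them on Rabep1, an endosomal effector of Rab5 (820 and 205 reads, 1.95, 1.67 to 2.28). Of the 35 with at least 10 reads, 10 were higher under the label ISC and 5 lower, against 26.7% and 22.7% of all hosts. Divided by library totals these became 22 and 2. The median log2 ratio was 0.69, beside 0.16 for all hosts.

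Among partners of the COPII coat, genes of ER exit sites had 126 and 24 reads, a ratio of 2.56 (1.64 to 4.14), and 1 of 2 with enough reads was higher. Ctage5, a cargo receptor component at exit sites, made 68.0% of them with 93 and 9 reads, 5.04 (2.54 to 11.4), while Lman1, a lectin receptor for glycoproteins, had 8 and 3 and Klhl12, a ubiquitin ligase adaptor of Sec31, had 3 and 5. The TRAPP complex, which tethers the vesicles that arrive at the Golgi, had 133 and 122 reads, a ratio of 0.531 (0.413 to 0.685). Trappc9 with 19 and 51 reads (0.182, 0.101 to 0.313) and Trappc13 with 1 and 13 were lower.

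ESCRT partners had 328 and 77 reads, a ratio of 2.08 (1.62 to 2.70), and 3 of 4 with enough reads were higher, beside 26.7% of all hosts. They were Chmp3, a subunit of the ESCRT-III polymer, with 138 and 31, Stam, of ESCRT-0, with 77 and 14, and Mvb12b, of ESCRT-I, with 78 and 6. Around the exocyst, Myo5b, the motor that moves Rab11 vesicles to the apical surface and also a gene of the epithelial list, had 2 reads against 87, a ratio of 0.0112 (0.00134 to 0.0417). Rab11fip1, an adaptor of Rab11, had 9 and 13, whereas its relative Rab11fip2 had 33 and none. Rab5a, which governs early endosome fusion, had 36 and 2, and Uvrag, of the VPS34 kinase complex, 29 and 1. The other genes past the rule were Copg2 of the COPI coat (37 and 4), A230046K03Rik (16 and 0) and the signal peptidase subunit Spcs2 (11 and 0), all higher, and Cog7 of the COG tether (2 and 11), lower.

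Which circle led a host could be compared for 23 members with at least 10 reads in each library. In 15 (65.2%) the same circRNA had the most reads in both, beside 745 of 1101 hosts overall (67.7%). Sec31a was counted among the 15, although its exons 2 to 4 tied at 18 reads with exons 2 to 5 in the library labelled non-ISC. The 8 that differed were Exoc4, Sec24a, Snx27, Snx29, Vps13a, Vps13b, Vps53 and Vps54. In Exoc4, a circle of exons 8 to 9 held 10 of the 11 reads labelled non-ISC (90.9%, exact binomial interval 58.7 to 99.8) and had no entry in the other, where exons 4 to 5 led with 8 of 27.

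Of the Vps54 circles 5 shared the acceptor of exon 2. Among these, exons 2 to 7 (chr11:21263199-21278060) held 5 of 47 reads in the library labelled ISC (10.6%, 3.55 to 23.1) and 13 of 18 in the other (72.2%, 46.5 to 90.3). The shorter exons 2 to 3 led in the library labelled ISC with 10 reads, against 3. In Vps13b the circle of exons 18 to 21 held 6.38% (3.34 to 10.9) and 19.7% (11.5 to 30.5), and in Snx25 the circle of exons 2 to 5 held 81.6% (68.0 to 91.2) and 39.6% (26.5 to 54.0). These intervals do not overlap, though in Vps13b they part narrowly (10.9 and 11.5). The circles were picked by these same reads, and how often such intervals part over all hosts was not counted. If both reads of a pair were counted, the intervals are too narrow. The shares do not depend on how the libraries are scaled.

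The remaining changes of leader rested on few reads or on missing entries. Snx27 was led in the library labelled ISC by an entry at chr3:94561769-94562284 with 16 of 60 reads, absent from the other, where exons 3 to 7 led with 10 of 52. For Vps13a, exons 25 to 28 led with 8 reads and exons 20 to 26 with 12. Snx29 was led by exons 12 to 13 with 6 reads and by exons 5 to 6 with 14, Sec24a by exons 7 to 8 with 3 and exons 4 to 8 with 11, and Vps53 by exons 5 to 7 with 10 and, tied with exons 9 to 12, exons 14 to 17 with 3.

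**Figure D4:**
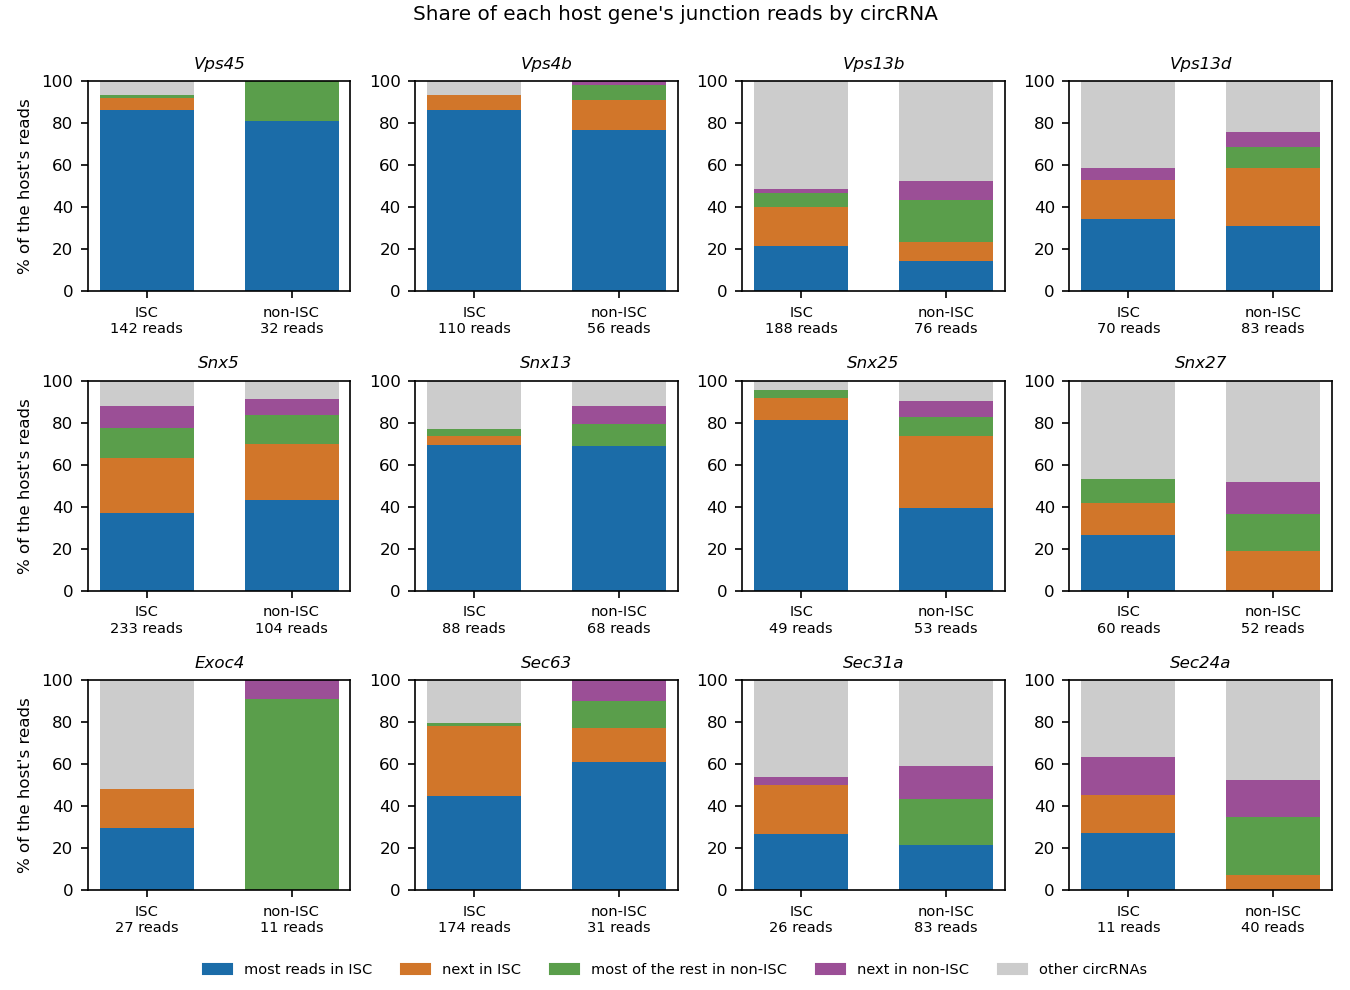
Percent of the junction reads of 12 member hosts by circRNA, in the library labelled ISC (left bar) and the library labelled non-ISC (right bar), with the host's reads below each bar; blue and orange are the 2 circRNAs with the most reads in the library labelled ISC, green and purple the next by reads in the other, and grey the rest. In Vps45, Vps4b and Snx5 the same circle led in both libraries, while the blue share of Snx25 was 81.6% and 39.6% and the green circle of Exoc4 held 90.9% in the library labelled non-ISC only.

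In exon number and spliced length the members' circles were near circRNAs at large, and in genomic span they differed. The median span was 7121.5 nt beside 4997 nt for all, but 4455.5 nt beside 6072 nt for those with at least 10 reads. Both ends lay on exon ends of 1 transcript for 324 of 402 (80.6%, beside 70.6% of all circRNAs), and for 92.2% and 92.7% of those with at least 10 reads. The exonic ones spanned a median of 4 exons and 478 nt after splicing, beside 3 exons and 474 nt for all. They began at exon 2 in 24.7%, beside 26.6% of all, with 41.5% in Snx and 14.0% in Vps. Among exonic circles with at least 10 reads this was 28.8% beside 35.4%. Within their hosts 263 of 402 (65.4%) shared a start or an end with another circRNA. Of 58 circles with at least 10 reads whose sequence was read, 48 lay wholly in coding sequence and 25 of these were a multiple of 3 nt long. Their GC content ran from 35.6% to 57.0% with a median of 45.5%.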

How the data were processed

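The authors deposited, for each of 2 sorted mouse intestinal cell groups with 1 library each, a list of circRNAs with 3 measures, which the file headers call count, RPM and junction; the last holds counts of junction reads. Per the labels' protocols, RNA was freed of ribosomal RNA, digested with RNase R (which removes linear RNA) and sequenced as read pairs. The sources used here do not say how the deposited count was assigned or which aligner and caller were used; per the submitters' processing notes, Trimmomatic 0.36 and FastQC were run and the build was mm9. The deposited RPM gives library totals of 52636694 (labelled ISC) and 72271995 (labelled non-ISC) reads. Positions are given as GRCm38, since 84.4% of member starts and 87.1% of ends fell on GENCODE M21 exon ends, and at most 0.219% when shifted by 1 nt.

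Junction reads were summed per host and divided by each library's total (156582 and 76331); 925 circRNAs without a host (0.725% and 1.48% of reads) were left out of host tables. Ratios have exact conditional (Clopper-Pearson) and shares exact binomial 95% intervals (Python 3.11.15, scipy 1.17.1). Both reads of a pair may have been counted at 1 junction, which would make the intervals too narrow. Of the 456 member entries, 54 had no junction read. Host genes named are the 5 with the most reads per family and all past the rule; circRNAs are the 3 most read per family, those with 10 reads in each library and leading ones, and further circles and hosts were chosen after their values were seen. Members, role, partner and marker lists were chosen with earlier results of these data known. The junction sequence of 1 circRNA is not reported here. The calculation was tested on simulated data.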

Additional observations from a re-analysis of the deposited data

Results flagged for a closer look

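Exoc3l4 and Snx19 were listed without a junction read in either library. In the count column of the library labelled non-ISC, which the comparisons do not use, Exoc3l4 nevertheless had 467 reads and Snx19 had 71. The sources used here do not say how that column was filled.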

How the results depend on the processing

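No paired analysis was possible because each group has 1 library, and for the same reason no replicate could be left out. Divided by library totals, 25 member hosts were higher and 3 lower (from 9 and 7), 31 and 6 circRNAs (from 14 and 15) and 22 and 2 partner genes (from 10 and 5); the summed ratios became 3.02 for Vps, 2.40 for Snx, 4.26 for Exoc, 1.72 for Sec and 0.455 for the COPII coat, and 1.27 for Snx25, 1.16 for Vps13d, 1.10 for Vps13b exons 18 to 21 (35533296 to 35576526) and 1.27 for Vps13d exons 64 to 65. This follows from the 2.82-fold scale, where Snx, Sec, both hosts and both circles changed sides, as did Snx13 and Snx27, which passed no rule in either direction. Median-ratio scaling, a shift of 0.162 on the log2 scale, gave 9 and 6 hosts and 16 and 13 circRNAs.

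With circRNAs read in both libraries only, 3 hosts and 6 circRNAs were higher, partners were 4 higher and 3 lower, and Exoc became 0.992 and Sec 0.798. Halved reads left 4 hosts higher and 6 lower of 32 tested, beside 407 and 400 of 2010 for all hosts. They left 4 circRNAs higher and 4 lower of 26 tested, beside 454 and 361 of 1943 for all circRNAs with a host. A minimum of 50 reads gave 5 hosts higher and 4 lower of 19 tested, and a ratio of 3 gave 4 higher and 5 lower of 41. A minimum of 20 reads gave 6 circRNAs higher and 5 lower of 24 tested, and a minimum of 5 reads 14 and 28 of 130. Shares over all features were not taken at these settings. At that minimum the rule is uneven. With 5 reads in the library labelled non-ISC alone the interval ended at 0.532, but with 5 in that labelled ISC alone it began at 0.447. Without Sec63 the Sec ratio was 0.324. In the count column 13 hosts were higher and 29 lower of 73 tested, and 108 circRNAs were higher and 103 lower of 262 tested. The main setting tested 41 hosts and 64 circRNAs. The share over all hosts and circRNAs was not taken for that column, so these counts are no result about the members. The summed ratios there were 0.637 for Snx, 0.564 for Exoc and 0.245 for Sec. Single ratios were 0.635 for Exoc5, 0.833 for Snx12 and its circle, 1.23 for Vps13d and 1.07 for Vps13b exons 18 to 21. The cause was not tested. The COPII coat alternatives, chosen after seeing the data, ran from 0.158 to 0.455. Depth limits rare circRNAs: 3 reads equal 19.2 and 39.3 per 1000000.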
